A study of Mus musculus with 10 samples.

Results

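Liver type 1 innate lymphoid cells (ILC1) and splenic natural killer (NK) cells from mice under Janus kinase inhibition were compared gene by gene, to see which transcripts still set the cell types apart during treatment and which no longer did. The comparison rested on 4 of the 10 libraries of the series, 2 of ILC1 and 2 of NK cells from BALB/C mice gavaged with tofacitinib at 30 mg/kg, 2 times a day for 7 days. The 6 libraries of mice given the vehicle, 3 per cell type, served as the reference. ILC1 had been sorted from liver as CD3- Nkp46+ DX5dim TRAIL+ cells and NK cells from spleen as NKp46+ CD3- cells, so organ, gate and sequencing run went with cell type in every library and cannot be told apart from it. Cells of several mice were pooled for each library according to the study's methods, and a difference between pools is not a difference between single animals.

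The deposited RPKM values (reads per kilobase of exon, relative to the mapped reads of the library) came from separate tables for ILC1 and NK cells, and were joined on gene symbol and scaled so that every library had the same median over 8777 expressed genes. Of 24981 genes in the tables, 9857 reached a group mean above 1 on the log2(RPKM + 0.1) scale in at least 1 of the 4 groups and were compared. All differences below are ILC1 minus NK on the log2(scaled RPKM + 0.1) scale, which understates the difference of genes of very low level. A gene was said to separate the cell types when the nearest libraries of ILC1 and NK cells lay at least 1 log2 unit (2-fold) apart. No p-value was attached to a level difference, since an exact permutation test of 2 libraries against 2 cannot go below a two-sided p of 0.333. What was tested is whether the difference itself changed with the drug (ILC1 tofacitinib minus ILC1 vehicle, less the same in NK cells), by limma over all 10 libraries with Benjamini-Hochberg adjustment over the 9857 genes.

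Tofacitinib blocks Janus kinases, the enzymes bound to receptors of the common gamma chain, interferon and IL-12 families that phosphorylate STAT transcription factors. IL-15 acting through JAK1, JAK3 and STAT5 keeps both ILC1 and NK cells alive, and STAT5 in turn induces the feedback inhibitors of the CISH and SOCS family. NK cells circulate, depend on EOMES and carry perforin and granzymes, whereas liver ILC1 stay in the tissue, express CD49a (encoded by Itga1), CXCR6 and TRAIL (encoded by Tnfsf10), and lack most EOMES.

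The libraries held 29199973 to 79258362 alignments, and Pearson correlations between libraries of the same cell type were 0.942 to 0.978 for ILC1 and 0.979 to 0.995 for NK cells. Between ILC1 and NK libraries they were 0.832 to 0.860 in vehicle and 0.851 to 0.885 in tofacitinib. ILC1 tofacitinib replicate 1 shared its sequencing run with ILC1 vehicle replicate 2, and ILC1 tofacitinib replicate 2 with vehicle replicate 3. Among the genes behind the sort, the NKp46 gene Ncr1 was high in all treated libraries (scaled RPKM of 623 and 707 in ILC1 and 579 and 591 in NK cells), Itga2, which encodes the DX5 antigen, was lower in ILC1 (5.698 and 6.99 in ILC1 and 42.7 and 38.3 in NK cells), and Tnfsf10 was higher in ILC1. Transcripts of Cd3e and Cd3g did not follow the gate in ILC1. Cd3e stood at 4.95 and 4.39 and Cd3g at 171 and 188, against 0.495 and 0.322 and 9.28 and 13.3 in NK cells. Cd3d differed less, at 5.05 and 5.96 in ILC1 and 3.82 and 4.22 in NK cells. Cd247, which encodes the zeta chain, was higher in NK cells (9.13 and 9.29 in ILC1 and 22.5 and 23.1 in NK cells). The summed level of 8 T cell markers, most of it Cd3g, was 205 and 227 scaled RPKM in treated ILC1 and 29.9 and 35.4 in treated NK cells. Sums of 10 B cell markers (27.3 and 28.1 against 104 and 138) and of 13 dendritic cell markers (89.9 and 112 against 225 and 304) were higher in NK cells, the latter mostly through Cd74, H2-Aa and H2-Ab1, which B cells also express, while Bst2 and Xcr1 of the same list were higher in ILC1. The sum of 14 hepatocyte markers was higher in ILC1 (58.1 and 64.5 against 14.9 and 16.6), most of it Trf, with 11 of the 14 under 1 scaled RPKM in all 4 treated libraries. ILC1 tofacitinib replicate 1 stood apart in neutrophil (243.5 against 14.6 in replicate 2, 13 markers) and erythroid sums (514 against 14.5, 11 markers). The part of these other cells in the differences given below was not tested.

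Under tofacitinib, 431 genes separated the cell types with higher levels in ILC1 (4.37% of those compared) and 378 with higher levels in NK cells (3.83%). In vehicle the counts were 421 (4.27%) and 384 (3.9%). The 2 treatments had 667 separating genes in common, all with the same direction, of which 351 were higher in ILC1 and 316 in NK cells. These made up 82.9% of the genes separating in vehicle and 82.4% of those separating in tofacitinib. Another 138 genes separated in vehicle only, but for 127 of them the treated libraries of ILC1 and NK cells still did not overlap, and for 67 the mean difference was still 1 or more. A narrower class of 71 genes (0.72%) separated in vehicle and had a mean difference under 1 with the drug, 35 of them higher in ILC1 and 36 higher in NK cells before. The opposite class, separating in tofacitinib with a mean difference under 1 in vehicle, held 45 genes (0.457%). Across the 9857 genes, which are not independent of each other, the differences of the 2 treatments correlated with r = 0.945, and the median absolute difference was 0.25 in tofacitinib and 0.29 in vehicle. Many small differences also left the libraries apart: 3259 genes (33.1%) had no overlap with ILC1 higher and 3470 (35.2%) with NK cells higher. The separating class was cut through a continuum, with 44 ILC1-higher genes within 0.1 log2 units above the limit and 62 as close below it, and 46 and 59 NK-higher genes. In bulk libraries such as these, fewer cells of a type and less RNA per cell cannot be told apart. The split between the cell types depended on the scaling. With the deposited RPKM left unscaled, the median difference over all genes in tofacitinib was -0.27 in place of -0.01, and the counts became 307 for ILC1 and 465 for NK cells, or 39.8% for ILC1 in place of 53.3%. The test of the change of the difference called 2 genes (0.0203%), and 31 genes (0.314%) when sequencing run was added as a block. For NK cells this run block was a letter in the sample sheet in place of a run.

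**Figure D1:**
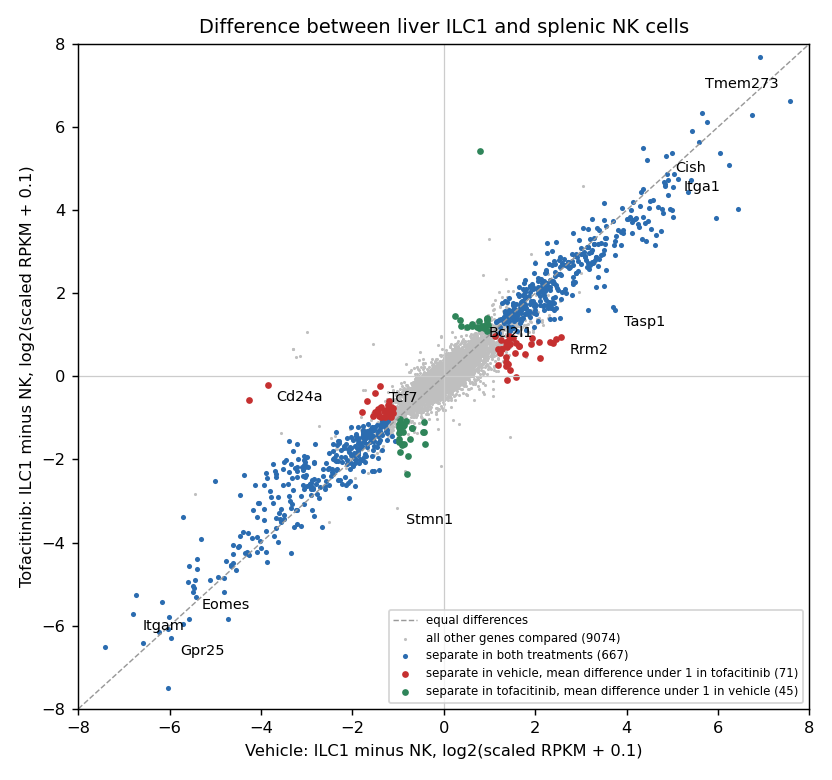
Difference between liver ILC1 and splenic NK cells for 9857 genes, in vehicle (x axis) and in tofacitinib (y axis), each the mean ILC1 minus the mean NK value of log2(scaled RPKM + 0.1); colours mark the 667 genes separating in both treatments, the 71 that separated in vehicle and had a mean difference under 1 in tofacitinib, and the 45 that separated in tofacitinib and had a mean difference under 1 in vehicle. Most points lie near the dashed line of equal differences, while Rrm2, Tasp1, Stmn1 and Tcf7 lie off it.

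At the ILC1 end of the comparison, the 12 genes with the widest distance were Tmem273, Ccdc80, Atp8a2, Csf1, Mmp9, Cd200r2, Osgin1, Ltb4r1, Cish, Pdcd1, Fosb and Itga1. Each separated the cell types in vehicle too. The integrin gene Itga1, a common marker of liver ILC1 (chromosome 13, 114958079 to 115101964), had scaled RPKM of 41.4 and 36.5 in ILC1 and 1.14 and 1.35 in NK cells, and its vehicle values were 28.9, 30.2 and 34.4 in ILC1 and 0.966, 0.675 and 0.926 in NK cells. The nearest treated libraries lay 4.66 log2 units apart, with a mean difference of 4.86 in tofacitinib and 5.04 in vehicle. Cd200r2, an immune receptor of the CD200 receptor family, stood at 37.4 and 39.3 in ILC1 and 0.709 and 0.96 in NK cells. Csf1, the macrophage growth factor, stood at 11.04 and 9.26 in ILC1 and 0.04 and 0.11 in NK cells, so that it was near 0 in NK cells of treated mice. Pdcd1, which encodes the checkpoint receptor PD-1, had 4.41 and 3.32 scaled RPKM in ILC1 and was listed at 0 in 1 treated NK library and at 0.0324 in the other. Its vehicle difference was 6.25 and its treated difference 5.09. Ltb4r1, the receptor for the chemoattractant leukotriene B4, was at 6.47 and 5.35 in ILC1 and 0.0783 and 0.045 in NK cells. Mmp9, a gelatinase that is also a neutrophil marker, was at 20.1 and 11.2 in ILC1 and 0.03 and 0.182 in NK cells, and its higher value was in the ILC1 library with the high neutrophil sum.

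At the NK end, the 12 genes with the widest distance were Gpr25, C1ql3, Cdh22, St5, Itgam, Rhpn1, Cma1, Cym, Eomes, Dhrs3, Klhl30 and Angpt1, and each of these also separated the cell types in vehicle. Eomes, the T-box factor that NK cells need (chromosome 9, 118478186 to 118486132), had scaled RPKM of 3.21 and 5.73 in ILC1 and 164 and 159 in NK cells, next to 2.69, 4.68 and 4.37 in ILC1 and 165, 189 and 176 in NK cells in vehicle, a 36.8-fold difference on the offset scale with the drug. Tbx21, its relative T-bet that both cell types need, was at 122 and 104 in ILC1 and 135 and 141 in NK cells and did not separate them. Itgam, the CD11b chain of mature NK cells, was at 2.07 and 3.703 in ILC1 and 154 and 146 in NK cells, with a difference of -5.71 in tofacitinib and -6.80 in vehicle. Cma1, a chymase, was at 0.754 and 6.25 in ILC1 and 214 and 212 in NK cells, with a wide gap between its ILC1 libraries. Gpr25, an orphan receptor, was at 0.12 and 0.288 in ILC1 and 23.7 and 22.4 in NK cells. The direction was the same in every library, with no ILC1 library near an NK library for any of the 12.

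Of 22 NK cell identity genes compared, 18 separated the cell types with NK cells higher under tofacitinib and 0 with ILC1 higher, and 18 and 0 did so in vehicle, 17 of them in both. Over all genes compared, 3.83% separated with NK cells higher under tofacitinib and 4.37% with ILC1 higher. The list median was -2.89 in tofacitinib and -3.40 in vehicle, against -0.01 and 0.00 over all genes compared. Klrg1, an inhibitory receptor of terminally mature NK cells, was at 3.61 and 7.97 in ILC1 and 117 and 121 in NK cells. S1pr5, the sphingosine phosphate receptor that lets NK cells leave marrow and lymph node, was at 1.79 and 4.66 in ILC1 and 118 and 119.6 in NK cells. Zeb2, a repressor needed for late NK maturation, was at 0.451 and 1.04 in ILC1 and 27.4 and 25.1 in NK cells, and Prdm1, which encodes BLIMP-1, at 6.09 and 7.08 in ILC1 and 32.5 and 29.6 in NK cells. Spn, which encodes CD43, joined the separating genes in tofacitinib (-1.20 against -1.23 in vehicle) and Emp3 left them (-1.27 against -1.75). In 17 of the 18 separating genes ILC1 tofacitinib replicate 2 was above replicate 1, which was so in 221 of all 378 NK-higher genes. Leaving out replicate 1 kept the count at 18, and leaving out replicate 2 gave 19.

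Among 25 ILC1 identity genes compared, 19 separated with ILC1 higher in tofacitinib and 1 (Il18r1) with NK cells higher, next to 4.37% and 3.83% of all genes compared. The list medians were 2.94 in tofacitinib and 3.0 in vehicle. Cxcr6, the chemokine receptor that holds lymphocytes in liver sinusoids, had scaled RPKM of 179 and 232 in ILC1 and 7.63 and 9.24 in NK cells. Tnfsf10, the death ligand TRAIL, was at 67.8 and 57.1 in ILC1 and 4.12 and 4.83 in NK cells, and its difference is no finding since the ILC1 gate used it. Cd200r1 was at 47.9 and 50.8 in ILC1 and 1.85 and 2.16 in NK cells, and Xcl1, which encodes a chemokine for cross-presenting dendritic cells, at 550.1 and 666 in ILC1 and 24.1 and 28.6 in NK cells. Ckb, the brain-type creatine kinase, was at 92.96 and 82.9 in ILC1 and 3.81 and 4.596 in NK cells, and Inpp4b, a phosphoinositide phosphatase, at 20.4 and 19.7 in ILC1 and 1.01 and 1.23 in NK cells. Tmem176a and Tmem176b differed by 3.78 and 3.66 in tofacitinib, near 4.18 and 4.24 in vehicle. Il7r, Kit, Rora and Tigit did not reach the limit in either treatment. Il18r1, a chain of the IL-18 receptor, was at 66.3 and 91.3 in ILC1 and 218 and 202 in NK cells, so that its place in the list did not match its level in these libraries. The single member that had separated in vehicle and had a mean difference under 1 with the drug was Tcf7, taken up below.

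**Figure D2:**
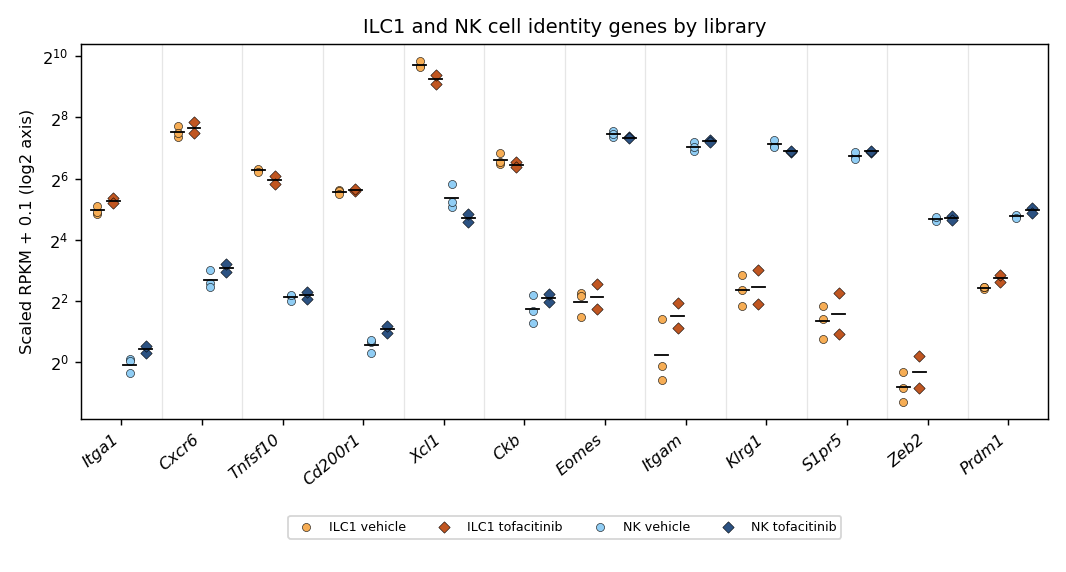
Scaled RPKM + 0.1 (log2 axis) of 12 identity genes in each library, with circles for vehicle, diamonds for tofacitinib, and a bar at the mean of the log2 values of each group. ILC1 and NK libraries stay apart for all 12 genes in both treatments, as for Itga1 (41.4 and 36.5 in treated ILC1, 1.14 and 1.35 in treated NK cells).

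Of 23 genes that both cell types share as type 1 lymphocytes, 4 separated with ILC1 higher under tofacitinib (Ifng, Cd226, Il12rb1 and Slamf7) and 1 with NK cells higher (Il18rap), next to 4.37% and 3.83% of all genes compared. Ncr1, Klrk1, Klrd1 and Il2rb, the last of these the IL-2 and IL-15 receptor beta chain (590.4 and 592 in ILC1 and 450.4 and 483 in NK cells), had differences of 0.18, 0.10, -0.42 and 0.34. The interferon gamma gene Ifng was at 58.8 and 157 in ILC1 and 14.5 and 9.703 in NK cells, and its ILC1 libraries were far from each other while both stayed above the NK libraries.

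Cytotoxic granule genes parted in both directions. Of 17 compared, 5 separated with NK cells higher (Gzmk, Gzma, Prf1, Serpinb9 and Gzmm) and Gzmc with ILC1 higher, the same 6 as in vehicle. Among all genes compared, 3.83% and 4.37% separated in these directions with tofacitinib. Prf1, which encodes perforin, was at 77.9 and 80.9 in ILC1 and 362 and 386 in NK cells, and Gzma was at 456 and 725 in ILC1 and 3741 and 3472 in NK cells. Gzmc was at 10.9 and 10.8 in ILC1 and 0.379 and 0.301 in NK cells. Gzmb, by contrast, was similar in the 2 cell types with the drug. It was at 59.9 and 90.6 in ILC1 and 92.3 and 88.3 in NK cells, so the treated libraries overlapped, while the vehicle libraries at 423, 368 and 568 in ILC1 and 238, 295 and 254 in NK cells did not. The difference was 0.77 in vehicle and -0.29 in tofacitinib, and its change of -1.06 (SE 0.29) missed the limma threshold (adjusted p = 0.37) and passed it with sequencing run as a block (adjusted p = 0.0439).

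Effector cytokines and chemokines were higher in ILC1 or not separated. Of 14 compared, 7 separated with ILC1 higher in both treatments and 0 with NK cells higher, with a list median of 1.33 in tofacitinib and 1.63 in vehicle. The shares over all genes compared were 4.37% and 3.83% in tofacitinib. Tnf was at 12.9 and 22.1 in ILC1 and 2.33 and 1.92 in NK cells, and Il2, the T cell growth factor gene, at 6.17 and 5.74 in ILC1 and 0.187 and 0.381 in NK cells. Csf2, the granulocyte and macrophage growth factor, was at 2.59 and 3.07 in ILC1 and 0.396 and 0.697 in NK cells. Ccl5 was high in all libraries (1895 and 2135 in ILC1 and 3678 and 3589 in NK cells) and did not separate them. Of 11 TNF superfamily genes, 7 separated with ILC1 higher under tofacitinib, among them Tnfrsf25 (the receptor DR3, 29.4 and 31.7 in ILC1 and 6.67 and 8.47 in NK cells), Fas (3.32 and 5.28 in ILC1 and 1.09 and 0.956 in NK cells) and Tnfrsf18 (GITR, 86.4 and 90.6 in ILC1 and 30.9 and 32.01 in NK cells). Tnfsf8, the CD30 ligand, was at 8.96 and 9.25 in ILC1 and 0.819 and 1.06 in NK cells in tofacitinib and 14.6, 15.9 and 16.3 in ILC1 and 0.71, 0.255 and 0.789 in NK cells in vehicle. Its difference was 4.63 in vehicle and 3.16 with the drug, a change called only with the run block (-1.70, SE 0.31, adjusted p = 0.0399, against 0.523 without it). Tnfsf9, the 4-1BB ligand, had separated in vehicle (1.42) and lay just under 1 with the drug (0.96).

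Genes of tissue residency and of recirculation kept their opposite directions. Of 14 residency and adhesion genes, 6 separated with ILC1 higher and 1, the integrin gene Itga4 (43.5 and 54.3 in ILC1 and 159.8 and 160.3 in NK cells), with NK cells higher. Among all genes compared, 4.37% separated with ILC1 higher and 3.83% with NK cells higher. Rgs1, a brake on chemokine receptor signaling, was at 164 and 510.5 in ILC1 and 16.7 and 13.9 in NK cells, and Itgav, an integrin chain that takes part in activating TGF-beta, at 26.98 and 23.2 in ILC1 and 7.31 and 8.18 in NK cells. Of 12 egress and recirculation genes, 8 separated with NK cells higher under tofacitinib and 9 in vehicle, and Cxcr3 separated with ILC1 higher (165 and 155 in ILC1 and 22.99 and 26.8 in NK cells). Cxcr4, the receptor that retains cells in bone marrow, was at 7.15 and 19.1 in ILC1 and 189 and 188 in NK cells. S1pr1, the sphingosine phosphate receptor for exit from lymphoid tissue, was at 0.659 and 0.867 in ILC1 and 7.17 and 6.79 in NK cells. The median of the group was -3.34 in vehicle and -2.15 in tofacitinib, and 11 of its 12 genes had a difference that was less negative, or more positive, with the drug, where 5039 of all 9857 genes did. None of the 12 passed the limma threshold. An unadjusted p under 0.05 with a higher difference was found for 3 of them, and for 285 of all 9857 genes.

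Within that recirculation group, Klf3, a Kruppel-like factor related to Klf2, was at 37.2 and 45.5 in treated ILC1 and 17.5, 17.3 and 22.6 in vehicle ILC1, while NK cells were at 107 and 101 and 98.6, 94.7 and 100.3. The treated and the vehicle ILC1 libraries did not overlap, and the NK libraries of both treatments lay above all of them. The change of the difference was 1.03 (SE 0.18, adjusted p = 0.188), and 0.96 with the run block (adjusted p = 0.033). Ccr7, which guides cells to lymph nodes, was at 0.936 and 1.33 in ILC1 and 3.01 and 4.04 in NK cells and had a difference of -3.39 in vehicle and -1.56 in tofacitinib. The B cell marker sum moved the same way, from 8.92 to 23.9 scaled RPKM over the 3 vehicle ILC1 libraries to 27.3 and 28.1 in treated ILC1, and its part in these differences was not tested. S1pr4 had separated in vehicle (-1.25) and was at -0.94 in tofacitinib.

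Lineage transcription factors separated in both directions. Of 28 compared, 8 separated with NK cells higher and 5 with ILC1 higher under tofacitinib, next to 3.83% and 4.37% of all genes compared. Apart from Eomes and Zeb2, NK cells were higher in Klf2, a regulator of trafficking (42.1 and 66.3 in ILC1 and 367 and 341 in NK cells), in Lef1 (3.54 and 3.46 in ILC1 and 21.99 and 21.2 in NK cells) and in Myb (0.637 and 0.33 in ILC1 and 5.15 and 4.86 in NK cells). ILC1 were higher in Maf (36.8 and 29.9 in ILC1 and 7.11 and 8.65 in NK cells), Ahr, the aryl hydrocarbon receptor (6.14 and 6.44 in ILC1 and 1.24 and 1.88 in NK cells), Id3 (8.31 and 8.21 in ILC1 and 1.97 and 2.92 in NK cells), Tox (23.6 and 21.3 in ILC1 and 7.17 and 8.25 in NK cells) and Ikzf2 (9.04 and 9.29 in ILC1 and 2.42 and 2.75 in NK cells), the last of which separated in tofacitinib alone although its vehicle difference was 1.29. Genes for the factors common to innate lymphocytes, such as Id2 (1.02), Nfil3 (-0.35) and Ets1 (0.03), did not separate the cell types.

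Among these factors, Tcf7 alone had separated in vehicle and had a mean difference under 1 with the drug. It encodes TCF-1, which early innate lymphoid progenitors need (chromosome 11, 52246527 to 52283383). In vehicle it was at 21.7, 18.9 and 19.04 in ILC1 and 59.2, 51.1 and 48.04 in NK cells, with all ILC1 libraries below all NK libraries, and in tofacitinib at 57.1 and 60.99 in ILC1 and 64.7 and 73.2 in NK cells. The nearest treated libraries were 0.09 log2 units apart, against 1.14 in vehicle, and the mean difference was -1.40 in vehicle and -0.22 in tofacitinib. The change of 1.18 (SE 0.16) just missed the threshold (limma adjusted p = 0.062) and passed it with the run block (adjusted p = 0.0101). ILC1 were higher by 1.59 and 1.67 log2 units with the drug within the 2 shared runs. NK libraries paired by their letter in the sample sheet were higher by 0.34 and 0.61. Bcl6, a repressor that TCF-1 is known to sustain in T cells, was at 6.93 and 7.58 in ILC1 and 9.26 and 9.62 in NK cells and had a difference of -1.21 in vehicle and -0.38 in tofacitinib, a change that was not called (adjusted p = 0.459).

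Of 20 cytokine receptor genes, 4 separated with ILC1 higher and 2 with NK cells higher, next to 4.37% and 3.83% of all genes compared. Il2ra, the IL-2 receptor alpha chain and a STAT5 target, was at 12.2 and 8.996 in ILC1 and 1.06 and 1.34 in NK cells, and Il21r at 24.3 and 19.3 in ILC1 and 3.36 and 4.21 in NK cells. The NK-higher pair were the IL-18 receptor genes Il18r1 and Il18rap (80.3 and 105 in ILC1 and 264 and 253 in NK cells). The shared gamma chain Il2rg was at 214 and 224 in ILC1 and 163 and 178 in NK cells and did not separate the cell types. Among the 11 Janus kinase and STAT genes, Jak1 (129.8 and 161 in ILC1 and 391 and 385 in NK cells) and Tyk2 (30.6 and 27.3 in ILC1 and 74.5 and 70.5 in NK cells) were higher in NK cells and Jak2 (55.1 and 60.8 in ILC1 and 25.2 and 23.7 in NK cells) in ILC1. Jak2 crossed the limit in tofacitinib only, with 0.97 in vehicle and 1.24 with the drug. No STAT gene separated the cell types, and Stat5a and Stat5b, which transmit IL-2 and IL-15 signals, differed by -0.25 and -0.19.

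Cish, Socs1 and Socs2, feedback inhibitors of the pathway, kept a large difference between the cell types. Of 8 SOCS and CISH genes, 3 separated in tofacitinib, all higher in ILC1 and the same 3 as in vehicle. The ILC1-higher share over all genes compared was 4.37% in tofacitinib. Cish, a STAT5-induced inhibitor of cytokine receptor signaling, was at 43.6, 32.8 and 43.9 in ILC1 and 1.03, 1.4 and 1.42 in NK cells with vehicle, and 13.7 and 7.61 in ILC1 and 0.14 and 0.182 in NK cells with tofacitinib. Both cell types had lower values with the drug, without overlap between treatments, and the difference between them was 4.86 in vehicle and 5.31 in tofacitinib. The change of 0.45 (SE 0.35) was not called (adjusted p = 0.949), and its sign depended on the offset, since with 0.5 or 1 added to the RPKM in place of 0.1 it was -0.48 or -0.89. Socs2, an inhibitor of growth hormone and cytokine signaling, was at 34.7, 30.3 and 35.8 in ILC1 and 2.93, 2.87 and 2.88 in NK cells with vehicle, and 14.7 and 12.9 in ILC1 and 1.75 and 1.65 in NK cells with tofacitinib. Socs1, which binds and blocks Janus kinases directly, was at 61.4, 45.2 and 52.8 in ILC1 and 8.94, 11.5 and 12.7 in NK cells with vehicle, and 19.7 and 33.7 in ILC1 and 2.66 and 3.905 in NK cells with tofacitinib. For these 3 genes every ILC1 library stayed above every NK library in each treatment. Socs3 had a mean difference of 1.41 with the drug, but ILC1 replicate 1 was too close to the NK libraries (4.31 and 13.4 in ILC1 and 2.9 and 2.695 in NK cells).

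Among 15 STAT5 targets as a whole, 5 separated with ILC1 higher in each treatment and 0 with NK cells higher. The shares over all genes compared were 4.37% and 3.83% in tofacitinib. The list medians were lower with the drug in both cell types. The median treated minus vehicle value was -1.28 in ILC1 and -1.05 in NK cells, against 0.00 for both over all genes compared, and the median difference between the cell types was 0.89 in vehicle and 0.84 in tofacitinib. Without ILC1 tofacitinib replicate 1 the counts were 7 with ILC1 higher and 1 with NK cells higher. Those of all genes rose too, from 431 to 543 and from 378 to 534. Pim1, which encodes a survival kinase, was at 77.9 and 73.1 in ILC1 and 79.2 and 74.1 in NK cells, with a difference of -0.02, next to -0.05 in vehicle. Pim2, its relative, had separated in vehicle (73.4, 72.8 and 71.7 in ILC1 and 28.3, 35.04 and 29.6 in NK cells) and had a difference of 0.56 with the drug (19.6 and 13.6 in ILC1 and 9.96 and 12.2 in NK cells). Myc, which encodes a transcription factor of cell growth, was at 24.2, 18.2 and 22.9 in ILC1 and 11.7, 11.6 and 11.03 in NK cells with vehicle, and 7.85 and 8.35 in ILC1 and 6.65 and 6.69 in NK cells with tofacitinib. Serpina3f, a serpin gene, and F2rl2, a protease-activated receptor gene, remained higher in treated ILC1 (5.51 and 4.12 in ILC1 and 0.185 and 0.366 in NK cells for Serpina3f, 3.23 and 2.62 in ILC1 and 0.663 and 0.915 in NK cells for F2rl2). Bspry did not separate the cell types in either treatment (1.18 in vehicle, 0.43 in tofacitinib).

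The survival genes of the Bcl2 family did not part evenly. Bcl2 was at 61.9, 61.5 and 76.2 in ILC1 and 39.97, 33.5 and 39.6 in NK cells with vehicle, and 11.01 and 13.3 in ILC1 and 5.63 and 6.11 in NK cells with tofacitinib, so every treated library was below every vehicle library of its cell type. ILC1 were above NK cells in each treatment, and the difference of 0.82 in vehicle and 1.03 in tofacitinib stayed short of separation. Bcl2l1, which encodes BCL-XL, was at 26.7, 27.4 and 27.1 in ILC1 and 15.8, 16.5 and 14.99 in NK cells with vehicle, and 14.1 and 11.6 in ILC1 and 5.39 and 4.62 in NK cells with tofacitinib. It was thus among the genes that separated in tofacitinib alone (1.34 against 0.78), with a change that was not called (0.56, SE 0.15, adjusted p = 0.352). Mcl1, which NK cells need for survival, was at 116 and 162 in ILC1 and 123 and 121 in NK cells and did not separate the cell types in either treatment. Of 6 antiapoptotic genes, 3 separated with ILC1 higher under tofacitinib, Bcl2l1 and the A1 genes Bcl2a1b (38.4 and 48.1 in ILC1 and 4.66 and 4.65 in NK cells) and Bcl2a1d (42.2 and 47.6 in ILC1 and 3.405 and 3.002 in NK cells), whose near-identical copies make the assignment of reads uncertain. Over all genes compared, 4.37% separated with ILC1 higher and 3.83% with NK cells higher. Of 8 proapoptotic genes, Bik separated with ILC1 higher (3.95 and 5.06 in ILC1 and 0.621 and 0.432 in NK cells) and Pmaip1, which encodes NOXA, with NK cells higher (0.232 and 0.647 in ILC1 and 2.72 and 2.32 in NK cells). Bcl2l11, which encodes BIM, was at 20.7 and 25.4 in ILC1 and 24.6 and 24.2 in NK cells.

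**Figure D3:**
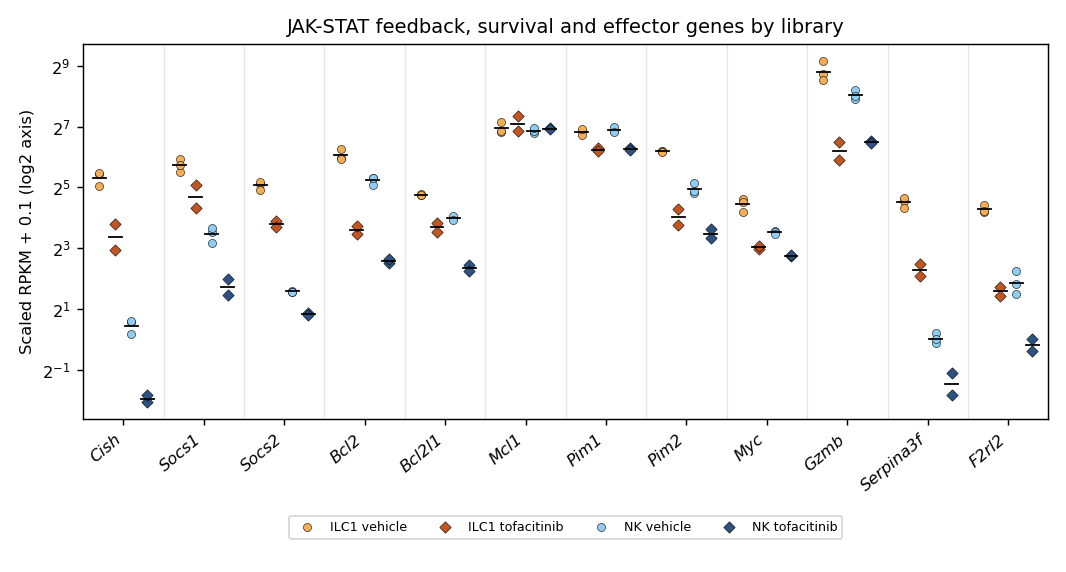
Scaled RPKM + 0.1 (log2 axis) of 12 feedback, survival and effector genes in each library, with circles for vehicle, diamonds for tofacitinib, and a bar at the mean of the log2 values of each group. Cish, Socs2, Bcl2, Bcl2l1 and Gzmb lie lower with tofacitinib in both cell types, and Cish keeps ILC1 (13.7 and 7.61) far above NK cells (0.14 and 0.182) while Gzmb ends at similar levels.

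AP-1 and immediate early genes, which respond quickly to stimulation, were higher in ILC1 or not separated. Of 22 compared, 7 separated with ILC1 higher in tofacitinib, 5 in vehicle, and 0 with NK cells higher in either. The ILC1-higher shares over all genes compared were 4.37% in tofacitinib and 4.27% in vehicle. The AP-1 count was 13 without ILC1 tofacitinib replicate 1 and 9 without replicate 2. The ILC1-higher count of all genes rose as well, from 431 to 543 and 774. Replicate 2 had the higher values of Fos, Fosb, Jun, Junb and Dusp1. Fos was at 21.7, 36.3 and 43.6 in ILC1 and 2.33, 0.887 and 1.36 in NK cells with vehicle, and 44.7 and 105 in ILC1 and 8.43 and 5.997 in NK cells with tofacitinib, and Jun at 45.8, 46.2 and 51.7 in ILC1 and 6.59, 3.44 and 3.07 in NK cells with vehicle, and 80.9 and 122 in ILC1 and 27.1 and 17.4 in NK cells with tofacitinib. Both genes had higher values with the drug in ILC1 and in NK cells, with no overlap between treatments. For Fos the nearest ILC1 libraries were close (44.7 with tofacitinib and 43.6 with vehicle). The difference of Jun was 3.51 in vehicle and 2.18 in tofacitinib. That change was not called in the fit without a block (adjusted p = 0.563) and was called with the run block for Jun (-1.69, SE 0.20, adjusted p = 0.00137), for Fos (-1.80, SE 0.32, adjusted p = 0.033) and for the phosphatase gene Dusp1 (-1.55, SE 0.30, adjusted p = 0.0487). Junb was at 399 and 1031 in ILC1 and 139 and 108 in NK cells, and Fosb at 14.4 and 29.8 in ILC1 and 0.465 and 0.274 in NK cells.

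Of 22 interferon-stimulated genes, 4 separated with ILC1 higher in each treatment, next to 4.37% of all genes compared in tofacitinib and 4.27% in vehicle. The median difference was 0.58 in tofacitinib and 0.69 in vehicle. Isg15, a ubiquitin-like modifier, was at 10.3 and 11.2 in ILC1 and 3.19 and 2.84 in NK cells, Oas3, a sensor of double-stranded RNA, at 7.83 and 3.57 in ILC1 and 1.11 and 1.17 in NK cells, and Igtp, a GTPase of antimicrobial defence, at 30.4 and 24.5 in ILC1 and 8.805 and 9.299 in NK cells. Ifi27l2a had separated in vehicle (1.92) and was at 0.92 in tofacitinib. Of 11 TGF-beta genes, the type 1 activin receptor gene Acvr1b separated with ILC1 higher (11.2 and 11.1 in ILC1 and 4.09 and 4.68 in NK cells) and Tgfbr3, a coreceptor, with NK cells higher (0.188 and 0.0479 in ILC1 and 1.74 and 1.88 in NK cells). Among all genes compared, 4.37% and 3.83% separated in these directions. Tgfbr1, Tgfbr2 and the SMAD genes compared did not separate the cell types.

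NK receptors outside the Ly49 family and the ITAM pathway below them also parted in both directions. Of 23 receptor genes, 6 separated with ILC1 higher and 4 with NK cells higher, next to 4.37% and 3.83% of all genes compared. Lag3, an inhibitory receptor, was at 36.2 and 31.7 in ILC1 and 1.49 and 2.54 in NK cells, Cd160 at 95.1 and 101 in ILC1 and 10.9 and 16.02 in NK cells, and Cd226, the activating receptor DNAM-1, at 107 and 126 in ILC1 and 18.7 and 20.4 in NK cells, all higher in ILC1. Slamf6 was at 0.566 and 1.22 in ILC1 and 9.75 and 9.62 in NK cells, and Klri2 at 34.7 and 44.05 in ILC1 and 105 and 101 in NK cells, higher in NK cells. Klrb1a and Slamf7 reached the limit in tofacitinib only, Klrb1a with NK cells higher (-1.25 against -0.70 in vehicle) and Slamf7 with ILC1 higher (1.40 against 0.95). Of 20 ITAM signaling genes, 5 were higher in NK cells, Sh2d1a (1.56 and 4.17 in ILC1 and 60.6 and 62.03 in NK cells), Syk (17.7 and 18.2 in ILC1 and 65.9 and 66.3 in NK cells), Cd247, Fyn and Sh2d1b1. Sh2d1a encodes the adaptor SAP and Syk a kinase that docks on ITAMs. Plcg1, a phospholipase more typical of T cells, was higher in ILC1 (17.6 and 14.7 in ILC1 and 1.98 and 1.87 in NK cells), as was the adaptor gene Clnk (22.7 and 21.9 in ILC1 and 6.65 and 7.195 in NK cells). Zap70 and Lcp2 had separated in vehicle and still differed by 1.06 and 1.1, with libraries nearer than the limit.

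Cell division genes that had separated the cell types with ILC1 higher in vehicle no longer met the 2-fold rule with tofacitinib. Of 22 compared, 8 separated in vehicle, all higher in ILC1, next to 4.27% of all genes compared. In tofacitinib 0 separated with ILC1 higher and 1, Stmn1, with NK cells higher, next to 4.37% and 3.83% of all genes compared. The list median was 0.97 in vehicle and 0.22 in tofacitinib, and 21 of 22 genes had a lower difference with the drug, where 4818 of all 9857 genes did. Treated minus vehicle medians were -1.03 in ILC1 and -0.12 in NK cells. Among the 22 genes 6 belonged to the 71 with a mean difference under 1 in tofacitinib, Rrm2, Pclaf, Cdca7, Top2a, Tk1 and Mcm5, of which Tk1 and Mcm5 were picked for naming after their values were seen. These 71 were 0.72% of all genes compared. Leaving out ILC1 tofacitinib replicate 1 gave 8 such genes, and leaving out replicate 2 gave 4. Without replicate 2, 6 of the 22 separated as ILC1-higher, and the count over all genes rose from 431 to 774. With unscaled RPKM there were 3, and the list median was 0.69 in vehicle and -0.05 in tofacitinib, so that its sign turned. An offset of 1 also gave 3 and a filter above 3 gave 2. The list had been drawn up with earlier results of these data known, so its count is a description.

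Rrm2, the small subunit of ribonucleotide reductase that supplies deoxynucleotides (chromosome 12, 24708254 to 24714146), was at 10.1, 9.49 and 8.54 in ILC1 and 1.42, 1.22 and 1.96 in NK cells with vehicle, and 3.14 and 2.36 in ILC1 and 1.32 and 1.43 in NK cells with tofacitinib. Treated ILC1 were below every vehicle ILC1 library and still above the NK libraries. The difference was 2.56 and 0.94, a change of -1.62 (SE 0.29, adjusted p = 0.188, and 0.0372 with the run block). Top2a, the topoisomerase that untangles replicated chromosomes, was at 5.94, 9.64 and 8.11 in ILC1 and 2.82, 2.87 and 2.65 in NK cells with vehicle, and 3.35 and 1.96 in ILC1 and 2.17 and 2.42 in NK cells with tofacitinib, where ILC1 and NK libraries overlapped. Its change was -1.29 (SE 0.33, adjusted p = 0.352, and 0.0278 with the run block). Pclaf, a partner of the replication clamp PCNA, was at 6.16, 8.27 and 4.66 in ILC1 and 1.06, 0.934 and 1.13 in NK cells with vehicle, and 1.96 and 1.14 in ILC1 and 0.981 and 0.58 in NK cells with tofacitinib. Cdca7, a chromatin protein and target of MYC and E2F, was at 5.403, 5.98 and 5.65 in ILC1 and 0.663, 1.12 and 1.33 in NK cells with vehicle, and 1.45 and 1.22 in ILC1 and 0.658 and 0.796 in NK cells with tofacitinib. Both were low in treated cells, and their changes of -1.57 and -1.59 were not called (adjusted p = 0.395 and 0.324). Mki67, the proliferation marker Ki-67, was at 5.72, 6.93 and 6.25 in ILC1 and 2.34, 1.55 and 2.496 in NK cells with vehicle, and 3.71 and 1.21 in ILC1 and 0.854 and 0.895 in NK cells with tofacitinib, where ILC1 replicate 1 was far above replicate 2 and both were below the vehicle ILC1 libraries. Tyms was likewise split between treated ILC1 libraries (49.8 and 9.74). For Top2a, Mki67 and Tyms the higher treated value was in the ILC1 library with the high erythroid and neutrophil sums, whose part in these values was not tested.

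The sequence upstream of these genes is shown because genes of DNA replication and mitosis commonly carry CCAAT boxes, bound by NF-Y, and E2F sites. In RefSeq promoters of build GRCm38.p6, each of the following is the 250 bases before the transcript start that this table uses, read 5′ to 3′ on the gene's strand. That start lies inside the gene's annotated span for Top2a and Cdca7, so that 10 and 32 bases of their windows are within the span, and 0 for Rrm2 and Pclaf. Capitals mark CCAAT on either strand in Top2a (chr11:99024190-99024439, - strand), Rrm2 (chr12:24708004-24708253, + strand) and Pclaf (chr9:65890073-65890322, + strand), and the E2F-like motif TTTNNCGC on either strand in Cdca7 (chr2:72475969-72476218, + strand).
Top2a: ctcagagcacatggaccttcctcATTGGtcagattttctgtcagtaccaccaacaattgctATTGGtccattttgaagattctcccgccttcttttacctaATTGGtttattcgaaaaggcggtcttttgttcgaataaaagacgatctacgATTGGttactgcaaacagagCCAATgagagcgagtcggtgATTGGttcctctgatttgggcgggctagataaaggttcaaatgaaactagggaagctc
Rrm2: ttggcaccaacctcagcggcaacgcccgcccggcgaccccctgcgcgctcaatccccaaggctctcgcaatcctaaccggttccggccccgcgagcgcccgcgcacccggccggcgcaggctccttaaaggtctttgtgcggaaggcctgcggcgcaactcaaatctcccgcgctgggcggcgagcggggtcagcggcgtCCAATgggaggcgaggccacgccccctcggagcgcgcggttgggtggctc
Pclaf: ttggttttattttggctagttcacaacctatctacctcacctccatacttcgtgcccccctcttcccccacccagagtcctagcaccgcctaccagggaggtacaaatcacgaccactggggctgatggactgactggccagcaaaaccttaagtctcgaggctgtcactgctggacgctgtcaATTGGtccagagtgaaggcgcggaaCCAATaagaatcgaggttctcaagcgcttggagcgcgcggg
Cdca7: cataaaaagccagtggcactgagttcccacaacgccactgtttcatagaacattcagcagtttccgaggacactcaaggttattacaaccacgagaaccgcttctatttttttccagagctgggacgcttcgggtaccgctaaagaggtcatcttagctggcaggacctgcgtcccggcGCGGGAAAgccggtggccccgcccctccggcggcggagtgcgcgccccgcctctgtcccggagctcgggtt

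Top2a held 6 copies of CCAAT in this window, Pclaf 2, Rrm2 1 and Cdca7 0. Cdca7 held 1 copy of TTTNNCGC and also 1 of the STAT motif TTCNNNGAA, which is not marked. Top2a, Rrm2 and Pclaf held 0 copies of TTTNNCGC and 0 of TTCNNNGAA. Promoters were found for 18 of the 22 cell division genes (19 promoters), and 14 of these (73.7%) held CCAAT and 5 (26.3%) TTTNNCGC. Over all 32851 mouse promoters in the table the shares were 33.8% and 4.28%, and over the promoters of genes compared 35.3% and 7.28%. Among the 35 genes that had separated as ILC1-higher in vehicle and had a mean difference under 1 in tofacitinib, 26 were matched to 28 promoters, of which 13 (46.4%) held CCAAT and 6 (21.4%) TTTNNCGC. Motif counts describe letters in a window and are no evidence of binding. The STAT motif TTCNNNGAA was present in 2 of 19 cell division promoters (10.5%), against 7.02% of all promoters.

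The other genes that had been higher in ILC1 in vehicle and had a mean difference under 1 in tofacitinib included Chek1, a checkpoint kinase of replication stress (2.69, 1.68 and 2.12 in ILC1 and 0.319, 0.465 and 0.484 in NK cells in vehicle, 0.553 and 0.475 in ILC1 and 0.257 and 0.479 in NK cells in tofacitinib), and E2f1, the founding E2F factor (7.34, 8.83 and 4.93 in ILC1 and 1.63, 1.57 and 1.395 in NK cells with vehicle, and 3.25 and 0.984 in ILC1 and 0.752 and 1.23 in NK cells with tofacitinib). Psmc3ip, a cofactor of recombination, went with them (1.58 in vehicle, -0.02 in tofacitinib). Capg, which encodes an actin-capping protein, was at 44.9, 44.7 and 38.01 in ILC1 and 11.1, 14.7 and 11.5 in NK cells with vehicle, and 10.8 and 11.6 in ILC1 and 7.395 and 7.92 in NK cells with tofacitinib. Treated ILC1 lay below every vehicle ILC1 library, and the change of -1.23 (SE 0.18) missed the threshold (adjusted p = 0.105) and passed it with the run block (adjusted p = 0.033). Of all 35 genes, 29 still had ILC1 libraries above NK libraries without overlap, as 33.1% of all genes compared did, and the median difference was 1.45 in vehicle and 0.73 in tofacitinib. The median treated minus vehicle value was -1.02 in ILC1 and -0.07 in NK cells. A smaller treated difference follows from the rule that picked these 35 genes, so these medians only describe them.

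**Figure D4:**
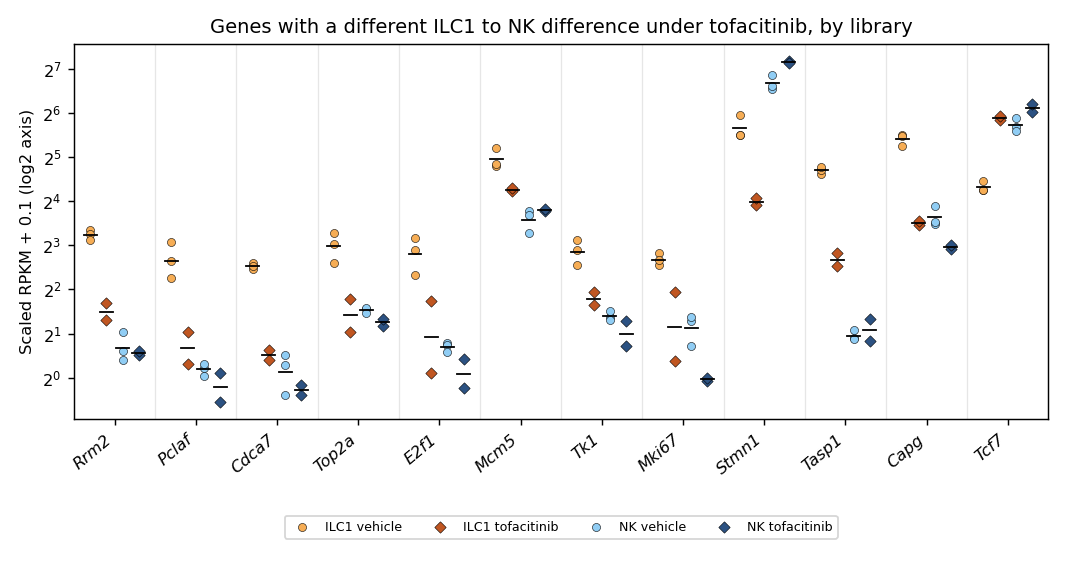
Scaled RPKM + 0.1 (log2 axis) by library for genes whose difference between ILC1 and NK cells was smaller or larger with tofacitinib, with circles for vehicle, diamonds for tofacitinib and a bar at the mean of the log2 values of each group. Treated ILC1 lie nearer to the NK level than vehicle ILC1 for Rrm2 (3.14 and 2.36) and Top2a (3.35 and 1.96), farther below it for Stmn1 (14.8 and 16.6), and at nearly the same level for Tcf7 (57.1 and 60.99).

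The 36 genes that had separated as NK-higher in vehicle and had a mean difference under 1 in tofacitinib had a median of -1.26 in vehicle and -0.86 in tofacitinib. Of these, 33 still had NK libraries above ILC1 libraries without overlap, as 35.2% of all genes compared did. The smaller treated median follows from the rule that picked these 36 genes and is no separate result. Besides Tcf7 they included Ssh2, a cofilin phosphatase (12.7 and 17.2 in ILC1 and 26.1 and 25.4 in NK cells), and Frat1, a regulator of the kinase GSK3 (3.78 and 3.88 in ILC1 and 6.81 and 6.16 in NK cells). Cd24a and the hemoglobin gene Hba-a1 were in this class through ILC1 tofacitinib replicate 1, in which Cd24a was at 6.77 against 1.30 in replicate 2 and Hba-a1 at 111 against 0.55, the library with the high erythroid and neutrophil sums. Ribosome biogenesis and MYC-linked genes showed the same direction as cell division genes at a smaller size. All 21 compared had a lower difference with the drug, where 4818 of all 9857 genes did. Of the 21, 6 were at an unadjusted limma p under 0.05, as were 377 of all genes with a lower difference. At an adjusted p under 0.05 there were 0. The medians were 0.39 in vehicle and 0.21 in tofacitinib, and 0 separated in tofacitinib. Of all genes compared, 4.37% separated in tofacitinib with ILC1 higher and 3.83% with NK cells higher. Slc7a5, the large neutral amino acid transporter, had separated in vehicle (7.802, 6.98 and 8.74 in ILC1 and 2.99, 3.16 and 2.31 in NK cells) and had a difference of 0.94 with the drug (2.36 and 1.62 in ILC1 and 0.954 and 0.989 in NK cells).

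Of the 45 genes that separated in tofacitinib with a mean difference under 1 in vehicle, 19 were higher in ILC1 and 26 in NK cells, and 10 had overlapped in vehicle. On the ILC1 side were Zfp704 (0.25 in vehicle, 1.46 in tofacitinib), Hebp1, which encodes a heme-binding protein (0.35 and 1.35), Rab37, a GTPase of secretory granules (37.9 and 40.4 in ILC1 and 15.2 and 17.2 in NK cells in tofacitinib), and Eya2 (20.3 and 18.2 in ILC1 and 8.37 and 8.22 in NK cells). On the NK side were Armc6 (-0.43 and -1.34), Fnip2, a partner of folliculin (-0.87 and -1.64), Depdc1b (0.545 and 0.323 in ILC1 and 1.79 and 1.96 in NK cells in tofacitinib) and Txnrd3, a thioredoxin reductase (0.797 and 1.27 in ILC1 and 2.76 and 3.37 in NK cells). None of these changes was called. S100a9, a neutrophil gene, met the rule with 68.3 scaled RPKM in ILC1 replicate 1, 0.446 in replicate 2 and 0.104 and 0 in NK cells, and moved with the neutrophil sum of replicate 1. The class was unstable to the libraries used, with 196 genes without ILC1 tofacitinib replicate 1 and 206 without replicate 2, as fewer libraries widen, by construction, the nearest distance.

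In the test of the change itself, 2 of 9857 genes passed an adjusted p of 0.05, both with a lower difference, and 0 with a higher one. At an unadjusted p under 0.05 there were 377 genes with a lower and 285 with a higher difference. Tasp1, which encodes the protease taspase 1 that cleaves MLL proteins (chromosome 2, 139833479 to 140066847), had scaled RPKM of 24.4, 25.97 and 27.2 in ILC1 and 1.76, 1.74 and 2.003 in NK cells with vehicle, and 5.66 and 6.96 in ILC1 and 1.67 and 2.43 in NK cells with tofacitinib. The NK libraries of the treatments overlapped at a low level, and treated ILC1 lay between vehicle ILC1 and NK cells without overlapping either. The difference was 3.75 in vehicle, 1.59 in tofacitinib, and the change -2.15 (SE 0.22, adjusted p = 0.011). Within the shared runs, treated minus vehicle ILC1 was -2.18 and -1.95.

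Stmn1, which encodes the microtubule-destabilizing protein stathmin (chromosome 4, 134468320 to 134473843), was at 44.8, 61.8 and 44.9 in ILC1 and 93.3, 115 and 96.9 in NK cells with vehicle, and 14.8 and 16.6 in ILC1 and 144 and 140.2 in NK cells with tofacitinib. ILC1 values were lower with the drug and NK values higher, with no overlap between treatments in either cell type. The difference was -1.02 in vehicle and -3.17 in tofacitinib, and the change -2.15 (SE 0.21, adjusted p = 0.011). Within the shared runs ILC1 were at -2.05 and -1.43 relative to vehicle. NK libraries paired by their letter in the sample sheet were at 0.32 and 0.53. Neither call held in all fits with 1 library left out. Stmn1 was at an adjusted p of 0.0758 without ILC1 tofacitinib replicate 1, 0.0573 without NK vehicle replicate 1, and 0.0732 and 0.0626 without NK tofacitinib replicates 1 and 2. Tasp1 was at 0.0538 and 0.0634 without ILC1 vehicle replicates 1 and 3, 0.0758 without ILC1 tofacitinib replicate 1, 0.0573 without NK vehicle replicate 1 and 0.0622 without NK tofacitinib replicate 2.

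Next in order of p with a lower difference were Prim1, the primase of replication (-0.89, SE 0.12, adjusted p = 0.0655), Capg, 1700017B05Rik, Wdr4, Rexo5 and Rrm2, with adjusted p up to 0.188. With a higher difference they were Tcf7, Ttc39c, Klf3, Fgl2, Zfp512, Arhgef3, Cd28 and Abhd4, from 0.062 to 0.25. Fgl2, which encodes a secreted fibrinogen-like protein, was at 234 and 214 in ILC1 and 64.9 and 67.6 in NK cells and separated the cell types in tofacitinib only (1.08 and 1.75). Cd28, a costimulatory receptor gene counted here among T cell markers, was at 10.6, 10.3 and 11.9 in ILC1 and 15.3, 14.1 and 15.3 in NK cells with vehicle, and 18.3 and 24.6 in ILC1 and 15.4 and 16.5 in NK cells with tofacitinib.

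With sequencing run (in NK cells the sample sheet letter) as a block 31 genes were called, 18 lower and 13 higher, at 2 residual degrees of freedom. Of these, 6 were hemoglobin genes, highest in ILC1 tofacitinib replicate 1. For all 6, ILC1 tofacitinib replicate 2 was also above vehicle replicate 3 of its run, by 2.55 to 3.26 log2 units. Hbb-bt and Hbb-b2 had the same values in every library, so their calls are not separate. Those with a lower difference included Tasp1, Stmn1, Jun, Fos, Dusp1, Tnfsf8, Rrm2, Top2a, Rexo5, Capg and Gzmb, and those with a higher one Klf3, Tcf7, Cd24a and Fcmr, the last a B cell marker. Hmox1, which encodes heme oxygenase 1, was also called with a higher difference (1.65, adjusted p = 0.0253), chosen for mention after its values were seen. It was at 0.876, 0.498 and 1.402 in ILC1 and 5.59, 5.84 and 7.64 in NK cells with vehicle, and 1.601 and 3.38 in ILC1 and 5.58 and 5.29 in NK cells with tofacitinib.

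**Figure D5:**
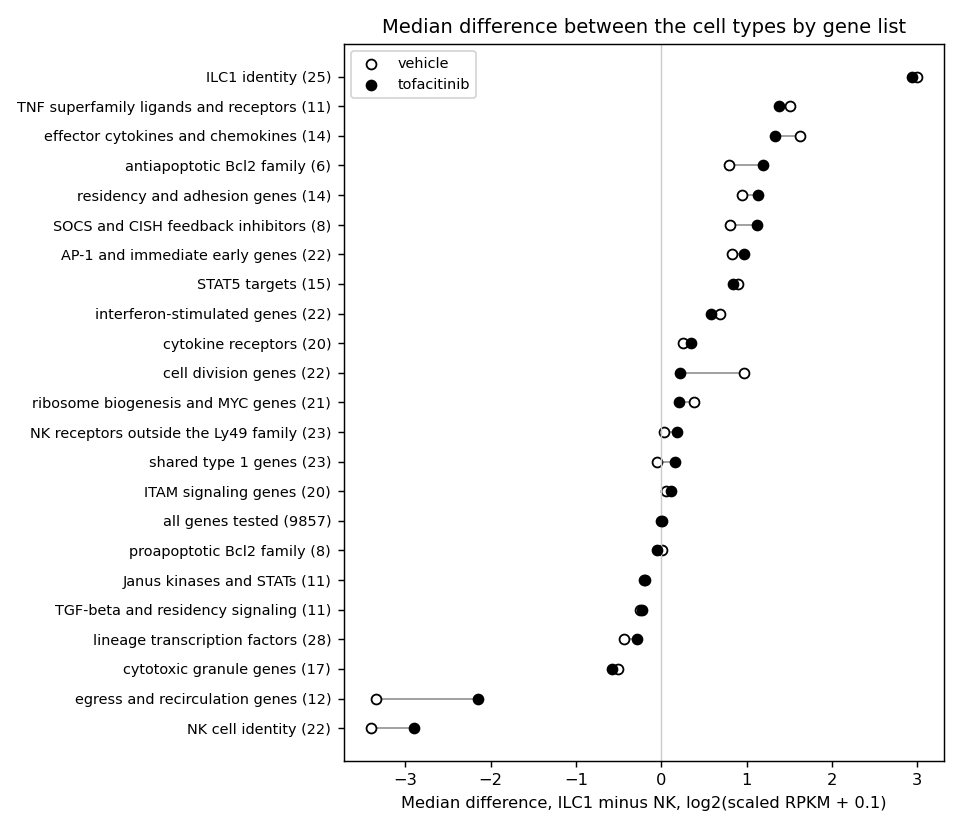
Median difference between ILC1 and NK cells (log2, ILC1 minus NK) over the genes of each of 22 lists, in vehicle and in tofacitinib. NK cell identity (-3.40 and -2.89) and ILC1 identity (3.0 and 2.94) stay at opposite ends, and cell division genes stand at 0.97 in vehicle and 0.22 in tofacitinib.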

How the data were processed

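Sorted liver ILC1 and splenic NK cells were profiled by RNA-seq (NEBNext Ultra II, 50-bp single-end reads). Per the labels, the authors mapped reads to mm10 with TopHat2 2.1.1 and deposited RPKM computed with Partek, in separate tables for ILC1 and NK cells. The submitters' processing notes also name CASAVA 1.8.2. RPKM are not counts, and no count test was used. Symbols starting with Mir or Snor (1296) were left out. Tables were joined on symbol, 0.1 was added before log2, and libraries were scaled to the same median over genes above 2 RPKM on average in both. Genes with a group mean above 1 in at least 1 group were fitted by limma 3.58.1 (R 4.3.3, trend, two-sided, all 10 libraries, no block). The fit was checked on simulated data of independent libraries without a run effect, so this check does not cover deviations shared within a run. Replicate numbers did not follow the sequencing runs, and ILC1 libraries of the same run deviated together (r = 0.60 and 0.75), while NK libraries sharing a letter in the sample sheet did not (r = -0.05 and -0.08). Run or letter was the block of the batch alternative. Replicates are pools of mice, and since nothing says that the pools came from separate experiments, p-values measure the spread between these libraries.

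Named were the genes with the widest treated distance (12 per direction), the 8 per direction with the smallest p of change, up to 8 per direction that lost or gained separation, up to 5 per direction of each list, and genes the study names. Ly49 genes and genes with near-identical copies were counted but, except where stated, not named. Of the genes picked by this rule, 1 is not reported here. Members, gene lists and naming rule were chosen with earlier results of these data known. RefSeq positions (GRCm38.p6, matched by symbol for 9671 genes) and promoters were used. Zfp683, Ncr3, Trac, Trbc1, Trbc2, Iglc2 and Ahsp were not analysed here. Alternatives varied the scaling, offset, filter, distance, variance model, blocks and libraries.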

Additional observations from a re-analysis of the deposited data

Results flagged for a closer look

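The effect of tofacitinib on Stmn1 differed between the cell types by the test of the difference itself. The change of the ILC1 minus NK difference was -2.15 log2 units (SE 0.21, limma adjusted p = 0.011), with ILC1 at -1.66 and NK cells at 0.49 relative to vehicle. Both treated ILC1 libraries were below all 3 vehicle ILC1 libraries, and both treated NK libraries were above all 3 vehicle NK libraries.

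For Tasp1 the change was -2.15 (SE 0.22, adjusted p = 0.011), with ILC1 at -2.02 and NK cells at 0.13 relative to vehicle. Both treated ILC1 libraries were below all 3 vehicle ILC1 libraries, and the NK libraries of the 2 treatments overlapped.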

How the results depend on the processing

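Of the 155 level differences examined, those of genes separating the cell types in tofacitinib kept their direction under every alternative run. The rule that picked these genes fixed this for another offset or a left-out library, so it is no separate support. For the other genes a turn of direction was not counted. Top2a turned without ILC1 tofacitinib replicate 1, with 1.96 left in ILC1 against 2.17 and 2.42 in NK cells. Groups of 2 libraries limited what the nearest-library rule and the interaction could resolve, read counts were not analysed here, and leaving out a library widens, by construction, the nearest distance of its own group. Among genes separating in tofacitinib with ILC1 higher (431), a filter above 3 gave 253, no filter 758, no minimum distance 3259, a distance of 2 gave 167, and leaving out 1 library gave 424 to 774, the highest without ILC1 tofacitinib replicate 2. With NK cells higher (378) the same settings gave 224 for the filter, 3470 with no minimum distance, 144 for a distance of 2, and 378 to 534 with 1 library left out. For genes separating in both treatments (667) they gave 402, 4430 and 261. The 71 genes separating in vehicle with a mean difference under 1 in tofacitinib became 21 without scaling (12 of them shared), 45 with an offset of 1, 34 with the stricter filter, 116 with no filter, 4324 with no minimum distance, 2 at a distance of 2, and 66 to 114 with 1 library left out. The 45 separating in tofacitinib with a mean difference under 1 in vehicle became 28 with an offset of 0.5 or of 1, 22, 141, 5509 and 0 in the same order, and 38 to 206 with 1 library left out, the high values without ILC1 tofacitinib replicates 1 (196) and 2 (206) and NK tofacitinib replicates 1 (72) and 2 (95). Without both ILC1 libraries of the run of tofacitinib replicate 1, an alternative chosen after seeing the data, these classes held 120 and 171 genes. The cause of these moves, other than fewer genes or libraries, was not tested.

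For the change of the difference, the counts with a lower and a higher difference (2 and 0) were 5 and 13 without scaling, 0 and 0 with no filter, 2 and 1 with the stricter filter, 1 and 0 with the vehicle ILC1 libraries of shared runs only, 0 and 0 with each gene's own variance, 18 and 13 with the sequencing run block, and 0 to 3 and 0 to 1 with 1 library left out. With the replicate block the count was 0 and 0, with 833 genes at an unadjusted p under 0.05 and an adjusted p of 0.366 for Stmn1 and for Tasp1. The labels do not say what a replicate number shares. ILC1 libraries of the same number had correlated deviations of 0.15 and -0.60. Deviations of 2 treated libraries mirror each other, so the -0.60 repeats the 0.60 of the shared run and adds nothing to it. Whether libraries of the same number belong together was not tested. The sign of the change turned for Mcl1 (0.08, and -0.16 without ILC1 tofacitinib replicate 2), Eomes (0.30, and -0.10 to 0.71 with 1 library left out), Klrg1 (0.32, and -0.23 to 0.89), Mki67 (-0.35, and -1.12 to 0.43), Cxcr4 (-0.37, and -1.07 to 0.33), Itga1 (-0.18, and 0.037 with an offset of 1) and Cish (0.45, and -0.89 and -0.48 with offsets of 1 and 0.5), none of them called.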
